A study of Mus musculus with 6 samples.

Results

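The genes described here are Atf3 and the AP-1 genes Fos, Fosb, Fosl2, Jun, Junb and Jund, chosen by symbol from the 16613 genes of the deposited count table. All 7 were in the table and all 7 passed the filter on low counts, which left 15043 genes to be tested. The libraries came from dorsal root ganglia, the clusters of sensory neuron cell bodies beside the spinal cord, of mice aged 6 months. The control group, with the genotype Kif2a fl/fl, and the knockout group, with the genotype Kif2a fl/fl; Avil cre, each had 3 libraries. Both groups carried the loxP-flanked Kif2a alleles, and the Cre recombinase of the knockout was driven from Avil, a gene active in sensory neurons. Besides neurons, the ganglion contains immune cells, vessels, Schwann cells and satellite glia. Whether each library is a separate animal is not in the labels, and the p-values therefore reflect only the spread among these libraries, which may be partly technical. In such bulk samples a change in the number of cells of a type cannot be told apart from a change in RNA per cell.

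AP-1 is a dimeric transcription factor made of a Jun protein paired with a Fos or another Jun protein, held together by a leucine zipper and bound to DNA through an adjoining basic region. ATF3 carries the same kind of domain and can pair with Jun proteins. In sensory neurons, ATF3 and c-Jun are known as markers of axon injury, switched on through the kinase DLK and its target JNK, whereas Fos and Fosb are known as brief responders to strong stimulation.

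Library totals ran from 16090726 to 19221415 counts. Kif2a itself was at 92.7 to 105.6 CPM (counts per library total scaled to a common size, with TMM factors) in the controls and at 85.7 to 90.6 CPM in the knockout, a log2 fold change of -0.14 (SE 0.10, edgeR adjusted p = 0.957). Avil was at 1003 to 1095 CPM in the controls and at 439.5 to 517.6 CPM in the knockout. Only the knockout carried the Cre, so effects of Kif2a loss, of the Cre and of lower Avil cannot be told apart. Control replicate 2 stood apart through transcripts of skeletal muscle, whose 9 tested markers summed to 1676 CPM there and to 146.0 to 242.5 CPM in the other 5 libraries. One of these markers, Pvalb, is also a gene of proprioceptive neurons, and without it, a choice made after seeing the data, the other 8 summed to 1390 CPM there and to 7.19 to 66.8 CPM elsewhere.

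Atf3 encodes a stress-induced transcription factor that is low in intact sensory neurons. It lies on the minus strand of chromosome 1 from 191170296 to 191218039 (GRCm38, GENCODE M21). The controls, in the order of replicates 1 to 3 used throughout, had 10.9, 8.56 and 9.09 CPM of Atf3, and the knockout libraries had 28.3, 22.6 and 28.2 CPM. Every knockout library was above every control library, with 22.6 CPM as the lowest knockout value against 10.9 CPM as the highest control value. The means were 9.52 ± 1.24 and 26.4 ± 3.26 CPM (SD, n = 3), a 2.77-fold difference. The log2 fold change was 1.47 (SE 0.15, 95% interval 1.11 to 1.82), and missed the threshold of 0.05 in edgeR (adjusted p = 0.084). With the replicate number as a block, which compares same-numbered libraries, Atf3 rose by 1.47 (SE 0.11, edgeR adjusted p = 7.62e-05). It was higher in 3 of 3 pairs, by 1.37, 1.39 and 1.62 on the log2 scale. "Rose" and "fell" are used below of genes that passed in this blocked fit. The labels state no pairing, so the pairs were inferred from these same counts, and without the block edgeR called 0 of 15043 genes. In edgeR each rise or fall below therefore depends on that inferred pairing. DESeq2 without a block called 63 genes, Atf3 and Fosl2 among them, so the calls of these 2 members also depend on the tool.

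Fosl2 encodes Fra-2, a Fos-family partner of the Jun proteins that is known to last longer than Fos after stimulation. Fosl2 was at 10.6, 10.7 and 11.1 CPM in the controls and at 21.7, 16.2 and 19.4 CPM in the knockout. The control libraries lay within a narrow span, and each knockout library was above it. The means were 10.8 ± 0.261 and 19.1 ± 2.75 CPM (SD, n = 3), a 1.77-fold difference. Without the block its log2 fold change was 0.82 (SE 0.14, 95% interval 0.49 to 1.15) and missed the threshold (edgeR adjusted p = 0.377). In the blocked fit Fosl2 rose by 0.81 (SE 0.12, edgeR adjusted p = 0.00421), with pair differences of 1.03, 0.59 and 0.80. With pair 1 left out of the blocked fit the difference was 0.69 and no longer passed (adjusted p = 0.0618). Fosl2 lies on the plus strand of chromosome 5 from 32135801 to 32157842.

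Of the 7 genes, 2 rose and 0 fell with the replicate block, where 1.24% of all tested genes rose and 2.36% fell, or 3.6% in either direction. Without the block, 0 of the 7 and 0 of 15043 genes passed in edgeR (0%), while 825 genes had an unadjusted p under 0.05. DESeq2 without a block called Atf3 (adjusted p = 6.94e-12) and Fosl2 (adjusted p = 0.00286) among 9 higher genes, or 0.0602% of those it tested. The ranges of the groups did not overlap, with the knockout higher, for Atf3 and Fosl2, as for 5.02% of all tested genes. With the knockout lower it held for 0 of the 7 and for 6.12% of all tested genes, which makes 2 of the 7 and 11.1% in either direction.

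**Figure D1:**
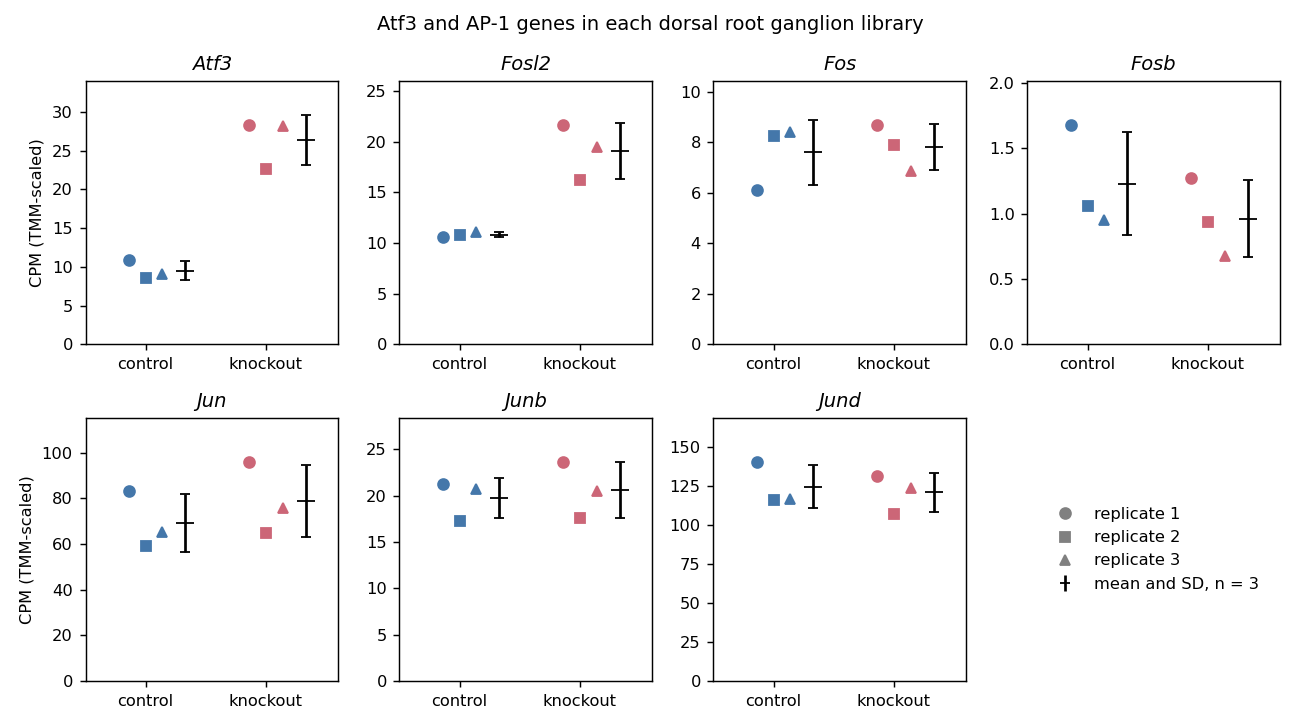
TMM-scaled CPM of each gene (vertical axes, linear and starting at 0) in the 3 control and 3 knockout libraries, with the replicate number as the marker shape and the mean with its SD in black. The knockout points lie above all control points for Atf3 and Fosl2, and the groups overlap for the other genes.

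Fos, the gene of the rapidly induced c-Fos protein, was at 6.10, 8.26 and 8.42 CPM in the controls and at 8.69, 7.89 and 6.85 CPM in the knockout. The groups overlapped over most of their range, and the lowest of all libraries was control replicate 1. Its log2 fold change was 0.04 (SE 0.18, 95% interval -0.38 to 0.46), with an edgeR adjusted p of 0.991. Only the first pair was higher in the knockout, by 0.50, and the others were at -0.07 and -0.29. Fos lies on chromosome 12 from 85473890 to 85477273.

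Fosb, whose product and its truncated form ΔFosB are known from repeated stimulation of neurons, was the lowest of the 7 genes. It had 30, 18 and 17 counts in the controls and 24, 16 and 11 in the knockout. Its level was 1.68, 1.06 and 0.948 CPM in the controls and 1.27, 0.935 and 0.679 CPM in the knockout. All 3 pairs were lower in the knockout, by 0.37, 0.17 and 0.42 on the log2 scale, yet the groups overlapped. The log2 fold change was -0.34 (SE 0.36, 95% interval -1.18 to 0.49, edgeR adjusted p = 0.981). At these counts the exact 95% Poisson interval, which covers counting error only, ran from 5.49 to 19.7 counts for the lowest library and from 20.2 to 42.8 for the highest.

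Jun encodes c-Jun, the JNK substrate of the injury response. Jun was at 83.2, 59.0 and 65.2 CPM in the controls and at 96.1, 65.0 and 75.7 CPM in the knockout. The groups overlapped, but each knockout library was above the control of the same number, by 0.21, 0.14 and 0.21 on the log2 scale. Without the block the log2 fold change was 0.19 (SE 0.18, 95% interval -0.23 to 0.61, edgeR adjusted p = 0.981). With the block it was 0.19 (SE 0.07, 95% interval 0.04 to 0.33), and it did not pass either (unadjusted p = 0.0162, edgeR adjusted p = 0.151). Both intervals lie below that of Atf3 in the same fit. Jun lies on chromosome 4 from 95049034 to 95052222 and shares 232 exonic bases with Junos on the other strand.

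Junb, whose product can restrain c-Jun at some promoters, was at 21.3, 17.2 and 20.7 CPM in the controls and at 23.7, 17.6 and 20.5 CPM in the knockout. The ranges overlapped, and the highest library was knockout replicate 1. The log2 fold change was 0.06 (SE 0.15, 95% interval -0.29 to 0.41, edgeR adjusted p = 0.985), and 2 of 3 pairs were higher. Junb lies on chromosome 8 from 84974484 to 84978718 and shares 173 exonic bases with Prdx2 on the other strand.

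Jund, the Jun gene that is expressed without a stimulus in most tissues, was at 140.7, 116.2 and 117.0 CPM in the controls and at 131.7, 107.4 and 123.8 CPM in the knockout. The groups overlapped, and 1 of 3 pairs was higher. Its log2 fold change was -0.04 (SE 0.13, 95% interval -0.34 to 0.25, edgeR adjusted p = 0.989). Jund lies on chromosome 8 from 70698949 to 70700616, and 877 of its 1668 exonic bases are shared with Gm11175 on the other strand. No source states whether strand was kept, and without it the reads of such overlapping genes cannot be told apart.

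**Figure D2:**
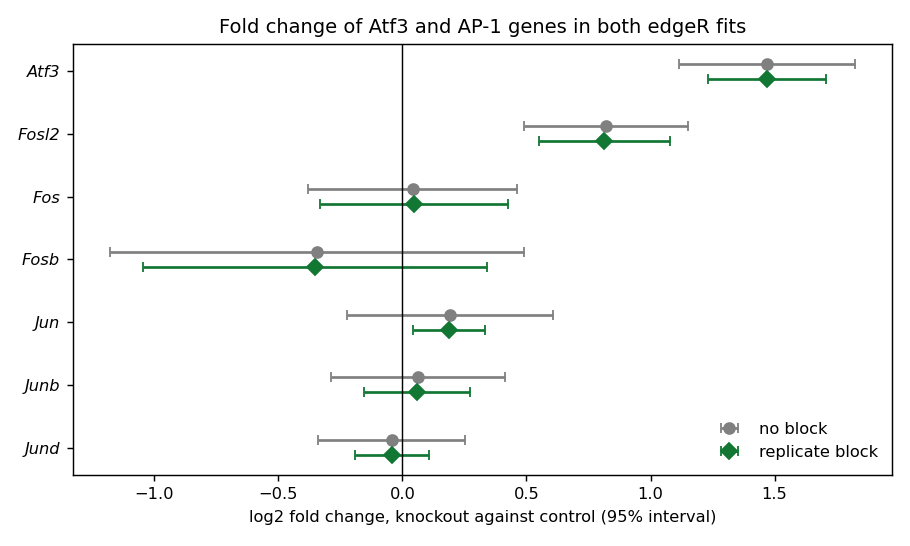
Log2 fold change (horizontal axis) of each gene in the edgeR fits without a block (grey circles) and with the replicate block (green diamonds), with 95% intervals. The intervals of Atf3 and Fosl2 lie above 0 in both fits, that of Jun lies above 0 only with the block (0.04 to 0.33), and the others include 0 in both.

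The replicate number accounted for part of the spread. For Atf3, Fosb, Jun, Junb and Jund, 5 of the 7 genes, the 3 libraries of the control group had the same order from high to low as those of the knockout group, with replicate 1 highest. The share of all genes with such a match was not computed. Some orders rest on close values in control replicates 2 and 3, 116.2 and 117.0 CPM for Jund and 18 and 17 counts for Fosb. That of Atf3 rests on 28.3 and 28.2 CPM in knockout replicates 1 and 3. For Fos the order was opposite in the groups. Fosl2 was lowest in replicate 1 of the controls and highest in replicate 1 of the knockout. The block reduced the SE of Jun from 0.18 to 0.07 and that of Jund from 0.13 to 0.07, whereas the SE of Fos went from 0.18 to 0.17.

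**Figure D3:**
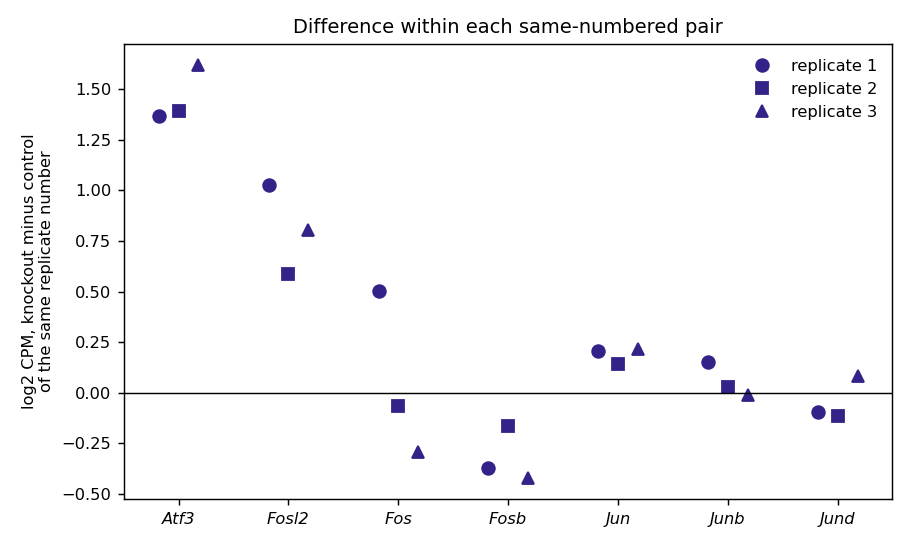
Difference in log2 CPM between the knockout and the control library of the same replicate number (vertical axis) for each gene, with 1 point for each of the 3 pairs. All pairs are above 0 for Atf3, Fosl2 and Jun and below 0 for Fosb, and the pairs of Fos, Junb and Jund fall on both sides of 0.

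Ratios between genes of the same library compare the members without the scaling between libraries. The log2 ratio of Atf3 to Jun counts was -2.93, -2.78 and -2.84 in the controls and -1.76, -1.52 and -1.42 in the knockout, a difference of 1.28. For Atf3 to Fosl2 the log2 ratio was 0.05, -0.33 and -0.29 in the controls and 0.39, 0.48 and 0.54 in the knockout, so Atf3 was higher relative to Fosl2 as well, by 0.66. Fosl2 relative to Fos differed by 0.76. In all, 13 ratios were computed, and the groups did not overlap for the 11 that set Atf3 or Fosl2 against another member. Both genes already separated the groups by themselves, so this count largely repeats that separation and is no further evidence. The share of such ratios over other gene pairs was not computed. Each of these 11 had a two-sided exact permutation p of 0.1, the smallest that 3 against 3 libraries allow, or 0.118 adjusted over the 13 ratios. The ratios of Jun to Junb and of Fos to Fosb overlapped (exact permutation p = 0.3 and 0.6).

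Levels were set side by side between genes as CPM per kb of exonic sequence in GENCODE M21. In the controls the order was Jund (74.7 ± 8.35 CPM per kb), Jun (21.7 ± 3.95), Junb (8.58 ± 0.949), Atf3 (4.42 ± 0.575), Fos (3.23 ± 0.550), Fosl2 (1.12 ± 0.0269) and Fosb (0.197 ± 0.0631), each as mean ± SD with n = 3. In the knockout Atf3, at 12.2 ± 1.51 CPM per kb, stood above Junb, at 8.95 ± 1.32, and the rest of the order was the same. Neighbours in these orders had ranges that did not overlap within either group. Atf3 was 3.81 to 3.94% of the summed level per kb of the 7 genes in the controls and 9.49 to 10.5% in the knockout. Jund was 64.5 to 66.7% in the controls and 56.9 to 59.6% in the knockout. A share also moves with the levels of the other genes. The level of Jund itself overlapped between the groups, with 72.5 ± 7.45 CPM per kb in the knockout, so the lower share does not show a fall of Jund. The exonic length joins all annotated transcripts, 9680 bases for Fosl2, so a gene read mostly from a shorter transcript is placed too low.

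**Figure D4:**
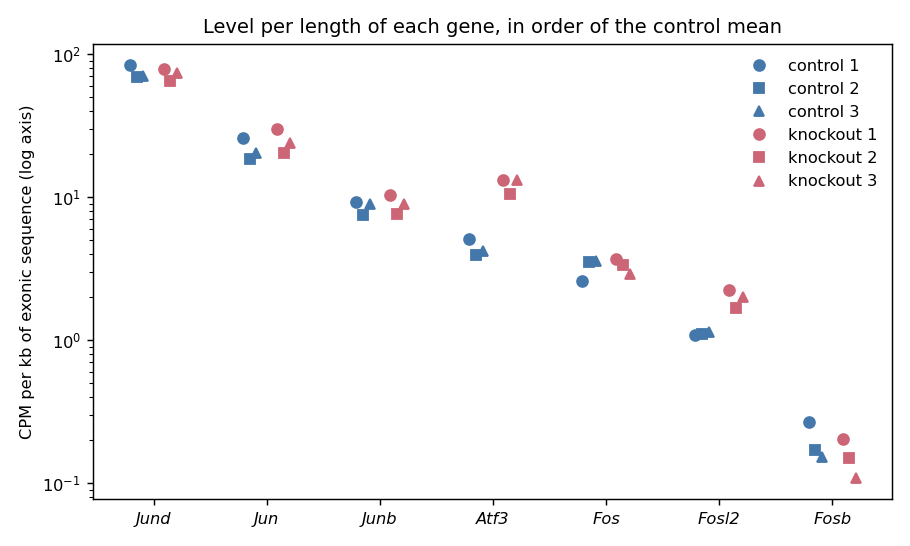
CPM per kb of exonic sequence (vertical log axis) for each gene in each library, with controls in blue and knockout in red. Atf3 is at 3.97 to 5.07 in the controls, below Junb, and at 10.5 to 13.2 in the knockout, above Junb.

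The DNA before a RefSeq start of 2 members is shown because Atf3, which rose, and Fos, which did not pass, are both known to be regulated through ATF and CREB sites. Each run is the 250 bases before the RefSeq start (GRCm38.p6), 5′ to 3′ on the gene's own strand, with the core TGACG of such sites in capitals on either strand (CGTCA on the other). Atf3 is read from chr1:191183334-191183583 on the minus strand, and Fos from chr12:85473640-85473889 on the plus strand. The Atf3 window lies within the span of the gene given above, before the start of a shorter transcript, and 7 of its bases are exonic in GENCODE M21.
Atf3: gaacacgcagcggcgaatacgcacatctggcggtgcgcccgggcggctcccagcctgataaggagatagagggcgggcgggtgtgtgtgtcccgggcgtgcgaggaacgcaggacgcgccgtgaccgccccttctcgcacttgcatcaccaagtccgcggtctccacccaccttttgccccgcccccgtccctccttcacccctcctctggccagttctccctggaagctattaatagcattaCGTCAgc
Fos: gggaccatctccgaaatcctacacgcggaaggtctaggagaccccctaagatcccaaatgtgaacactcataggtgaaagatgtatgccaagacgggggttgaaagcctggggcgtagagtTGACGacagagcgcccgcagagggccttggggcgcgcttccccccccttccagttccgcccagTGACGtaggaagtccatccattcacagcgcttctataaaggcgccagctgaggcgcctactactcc
The 7 members each had 1 such window. That of Fosl2 overlaps annotated exons and is not printed for that reason. Among the members, the overlap with exons was computed only for Atf3, Fosl2 and Fos. The core TGACG was found in 4 of them (Atf3, Fos, Fosb and Junb), and in 17.8% of 32851 windows of the same length over all genes. The full site TGACGTCA, which contains the core, was in 0 of the 7 and in 1.55% of all windows, and the AP-1 site TGAGTCA, searched on both strands, in 0 of the 7 and 4.46%. A match describes letters in this window only.

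Of 24 tested genes with the same type of DNA-binding domain, 1 rose and 0 fell. In the fit without a block, to which the medians of lists belong unless stated, 18 of the 24 had a log2 fold change above 0, beside 7873 of all 15043 genes. The values ran from -0.23 to 0.53, with a median of 0.09 beside 0.01 over all genes. The gene that rose was Cebpd, which encodes the transcription factor C/EBPδ. Cebpd was at 17.1, 21.5 and 25.6 CPM in the controls and at 23.9, 30.1 and 39.0 CPM in the knockout. Its groups overlapped, and within pairs it rose by 0.52 (SE 0.09, edgeR adjusted p = 0.00921). Without pair 1 its adjusted p in the blocked edgeR fit was 0.0568. Maf, Jdp2 and Atf1 were at 0.26, 0.36 and 0.37 in the blocked fit and did not pass. The Fos-family gene Fosl1 was not among the tested genes.

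Genes for the kinases and scaffolds that signal to c-Jun showed no call. Of 20 tested, 0 rose and 0 fell in the blocked edgeR fit, where the median was -0.04. Map3k12, which encodes DLK, was at 72.9, 51.8 and 59.0 CPM in the controls and at 69.1, 42.6 and 49.1 CPM in the knockout. Each knockout library was below its control, with a blocked log2 fold change of -0.21 (SE 0.07) (edgeR adjusted p = 0.156). Transcript levels say nothing of the activity of these kinases. Of 16 genes of the serum response and ERK arm that acts on Fos, 1 fell, Rps6ka2, which encodes a ribosomal S6 kinase, by 0.32 (SE 0.08, edgeR adjusted p = 0.0456), a call lost without pair 1 (0.0955) or pair 3 (0.0809). Of 9 dual-specificity phosphatases, which switch off MAP kinases, 0 passed, and Dusp1 and Dusp6 were at 0.11 and 0.21 in the blocked fit.

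Of 22 tested early genes outside AP-1, which share stimuli with Fos, 1 rose and 0 fell. The median was 0.24, and 19 of the 22 had a log2 fold change above 0, beside 7873 of all 15043 genes. The gene that rose was Nr4a1, an orphan nuclear receptor, at 27.4, 28.7 and 34.3 CPM in the controls and 44.5, 41.1 and 43.1 CPM in the knockout. Gadd45b, Arc and Klf6 were at 0.57, 0.60 and 0.24 in the blocked fit and did not pass, though their groups did not overlap. Egr1, which like Fos answers strong stimuli, was at 0.13 without the block. The count of early genes that rose was 0 with pair 1 left out, 5 without pair 2 and 6 without pair 3.

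Some of the genes that axon injury induces in sensory neurons were higher as well. Of 25 tested, 9 rose and 0 fell, beside 1.24% and 2.36% of all tested genes, with a median of 0.29. A log2 fold change above 0 was found for 18 of the 25, beside 7873 of all 15043 genes. Sprr1a, a gene of regenerating axons, had 11, 5 and 7 counts in the controls and 57, 37 and 39 in the knockout, and rose by 2.54 (SE 0.32, edgeR adjusted p = 0.00141). Ecel1, a peptidase gene, had 10, 3 and 3 counts in the controls and 55, 37 and 32 in the knockout. Nts, the neurotensin gene, was at 8.06, 16.9 and 11.3 CPM in the controls and at 25.8, 45.2 and 40.1 CPM in the knockout. Adcyap1, the PACAP gene, rose by 0.38 (SE 0.07), though not without pair 1 (edgeR adjusted p = 0.0666). The remaining 5 rises were of 0.34 to 0.50. Sox11, another transcription factor of the injury response, was at 0.07 (SE 0.13) in the blocked fit and did not pass. Stat3, also of this list, was lower in each pair, at -0.23 (SE 0.06) in the blocked fit, and did not pass either. With pair 1 left out, 4 genes of this list rose in place of 9. The list was chosen with earlier results of these libraries known, so it is no independent evidence of direction.

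Sprr1a is shown because it rose and its window holds AP-1 sites. The run is the 250 bases before its RefSeq start, chr3:92485882-92486131 on the minus strand (GRCm38.p6), with TGAGTCA in capitals and 14 bases that are exonic in GENCODE M21.
Sprr1a: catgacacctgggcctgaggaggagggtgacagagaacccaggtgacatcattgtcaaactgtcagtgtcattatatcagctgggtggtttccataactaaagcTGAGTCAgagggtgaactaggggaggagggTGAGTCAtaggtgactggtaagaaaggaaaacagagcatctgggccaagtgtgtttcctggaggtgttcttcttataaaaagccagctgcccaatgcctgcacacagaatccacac
The AP-1 site was present 2 times in this window. Of the 22 injury-list genes with a window, 3 held the site, namely Sprr1a, Nts and Il6, beside 4.46% of all windows. The Nts window overlaps annotated exons and is not printed. Il6 was not among the tested genes. Of the 9 genes of this list that rose, the site was found only in Sprr1a and Nts. Sprr1a was picked on both traits, and a link between the site and the rise was not tested.

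**Figure D5:**
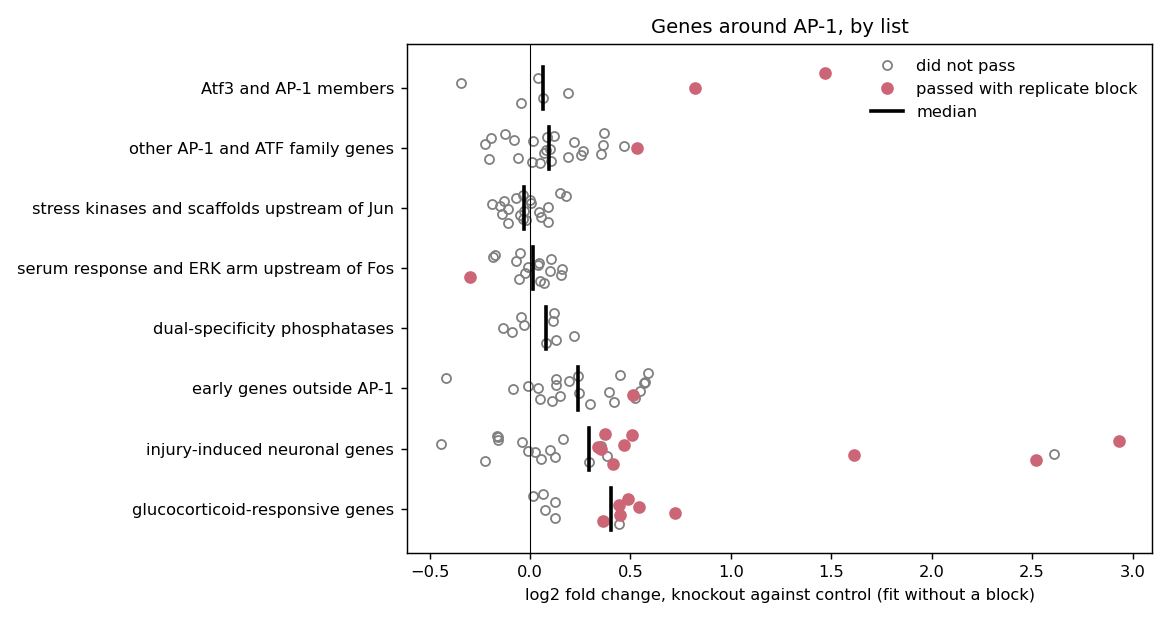
Log2 fold change without a block (horizontal axis) of every tested gene of each list, 1 circle a gene, filled where the gene passed in the blocked edgeR fit, with the list's median as a black bar. Atf3 at 1.47 and Fosl2 at 0.82 lie right of the other members, and the lists upstream of Jun and Fos have medians of -0.03 and 0.02.

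Neutrophil markers and glucocorticoid-responsive genes were among the genes that rose in the blocked fit, with 8 of 10 and 6 of 12 tested genes. The summed level of the 10 neutrophil markers was 56.5, 77.5 and 192.0 CPM in the controls and 116.1, 149.1 and 321.9 CPM in the knockout. Of 12 macrophage markers 2 rose, C1qa and C1qb, and the list summed to 201.9 to 400.0 CPM in the controls and 241.7 to 517.7 CPM in the knockout. Of 10 satellite glia markers 1 rose (S100b), of 11 endothelial markers 0, of 11 Schwann cell markers 0 and of 10 fibroblast markers 1 (Lum). Of 6 tested adipocyte markers 0 passed and all had a log2 fold change below 0, with a summed level of 14.8, 42.9 and 56.9 CPM in the controls and 17.1, 25.7 and 26.3 CPM in the knockout. The summed level of satellite glia markers was 5463 to 6703 CPM in the controls and 6067 to 7795 CPM in the knockout. Among the glucocorticoid-responsive genes Per1 rose by 0.72 (SE 0.12), and the 12 genes had a summed level of 441.0 to 477.2 CPM in the controls and 568.8 to 591.9 CPM in the knockout. The 14 sensory neuron markers were all tested, and summed to 20190 to 23796 CPM in the controls and 22161 to 26731 CPM in the knockout, with 1 rise (Nefh) and 3 falls (Avil, Scn10a and Scn9a). In the blocked fits without pair 1, 2 or 3, the rises numbered 6, 10 and 6 neutrophil markers, 0, 3 and 0 macrophage markers, and 3, 6 and 5 glucocorticoid-responsive genes. The calls of S100b, Lum, Per1, Nefh and Scn9a were lost without pair 1, and that of Scn9a also without pair 2. The part of these cells and genes in the rise of Atf3 and Fosl2 was not tested.

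Likeness of pattern was measured as the root mean square difference of log2 CPM over the 6 libraries, each gene centred on its own mean, so that a small value means a like course. Among the members, Jun, Junb and Jund followed one another most closely, with differences of 0.10 to 0.16. Atf3 and Fosl2 differed by 0.35, and Atf3 and Jun by 0.65. The genes nearest to Atf3 were Sowaha (0.31), Lmo3, Mogat1, B430212C06Rik and Mc4r (0.38), all of them low. Nearest to Fosl2 were Gm12709 (0.09), Mc4r, 4930528A17Rik, Gadd45b and Star (0.17). They are the closest of 14264 genes compared, and Gm12709 had only 12 to 27 counts a library and 4930528A17Rik 15 to 35. Star, which encodes a cholesterol transfer protein, was at 6.33, 6.02 and 5.74 CPM in the controls and at 8.90, 8.88 and 9.50 CPM in the knockout, and it rose (edgeR adjusted p = 0.0475), a call lost with any pair left out (0.0520 to 0.180). Gadd45b, a stress-inducible gene, was at 6.78, 5.49 and 5.97 CPM in the controls and at 9.64, 7.66 and 9.75 CPM in the knockout. The neighbours of Atf3 and Fosl2 were picked on these same libraries, so their higher knockout values follow from that choice. Nearest to Fos were Ranbp17 (0.04), 2610020H08Rik, Arhgef3, Rnf138 and Gm16793 (0.07). Of these, 2610020H08Rik had 17 to 26 counts a library and Gm16793 20 to 33. Whether any of these matches is closer than counting error and the number of genes compared would give was not tested.

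In the authors' deposited table, Atf3 had a log2 fold change of 1.47 with a false discovery rate of 1.84e-12, and Fosl2 of 0.82 with 0.000171. The authors' deposited table marks both as passing its limits on false discovery rate and 1.5-fold change, as it does 0.108% of its genes in the upward direction, and marks none of Fos, Fosb, Jun, Junb and Jund.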

How the data were processed

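Poly(A) RNA of dorsal root ganglia, extracted with TRIzol per the labels' protocols, was sequenced. The submitters' processing notes name cutadapt, STAR, DESeq2 and mm10. Counting tool, annotation and versions: not given in the sources used here. In 1 table the authors deposited raw counts per gene, a normalized signal, log2 fold changes and p-values with a false discovery rate, per the file headers. The counts were whole numbers, and the deposited signal was the count over 1 factor per library when checked. The 6 columns of transformed values were not used.

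The test was edgeR 4.0.16 in R 4.3.3 (filterByExpr, TMM, robust quasi-likelihood fit, group as the only term, Benjamini-Hochberg adjustment over 15043 genes, threshold 0.05). SDs and n are over the 3 libraries of a group. Log2 CPM used a prior count of 2, and 3 counts equal 0.156 to 0.186 CPM. Same-numbered libraries deviated together from their group means (Pearson's r over genes of 0.53, 0.30 and 0.17 for pairs 1 to 3), each above the level of 0.1 at which the numbers were taken as pairs. What a number marks is not in the labels, so the pairing rests on the data. Control replicate 2 and knockout replicate 3 also reached 0.14. The replicate block was planned as an alternative fit, but the rises, the falls and the list counts in the text come from it. Blocked values are also printed for some genes whose call did not change. DESeq2 1.42.0 and limma 3.58.1 (voom) were the other tools. The fits were also run on simulated counts that had a difference between replicate pairs built in, so that run cannot test the pairing of these libraries. All 7 members are named. Of each list, up to 4 genes of smallest p with the block were named, and for likeness the 5 nearest genes whose mean reached 1 CPM. Egr1, Sox11, Stat3, Il6 and Fosl1 fall outside that rule and were picked after their values were seen. The members and lists were chosen with earlier results of these data known. Promoter sequences are from RefSeq (GRCm38.p6), and gene positions from GENCODE M21.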

Additional observations from a re-analysis of the deposited data

How the results depend on the processing

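Without a block, edgeR called 0 genes under TMM, DESeq2 size factors, upper-quartile scaling, no low-count filter and each of the 6 omissions of a library, and limma-voom called 0. The number of genes called was 542 with the replicate block, 63 with DESeq2, 416 with DESeq2 and the block, 404 with limma-voom and the block, and 208, 819 and 897 in the blocked fits without pair 1, 2 and 3. Atf3 kept its direction in all 17 alternatives and passed in 7. Its log2 fold change was 1.47 with the replicate block, with DESeq2, with DESeq2 and the block, and with limma-voom and the block, 1.39 to 1.51 in the blocked fits without a pair, and 1.41 to 1.57 without a library. Fosl2 kept its direction in all 17 and passed in 6. Its value was 0.81 with the replicate block, 0.82 with DESeq2, 0.81 with DESeq2 and the block, and 0.82 with limma-voom and the block. It was 0.69 to 0.93 in the blocked fits without a pair and 0.72 to 0.93 without a library, and the call was lost without pair 1. Fosb and Jun kept their direction in all 17 and passed in 0, but their size moved by more than 1.5 times without single libraries. Without knockout replicate 1 Fosb was at -0.60 and Jun at 0.022, and without control replicate 1 Fosb was at -0.066 and Jun at 0.33, the lowest and highest values among the 6 omissions for each gene. Omissions reversed the sign of the members nearest 0, none of which passed in any fit. Without a library Fos ran from -0.11 to 0.13, Junb from -0.053 to 0.16 and Jund from -0.11 to 0.039, and in the blocked fits without a pair Fos ran from -0.19 to 0.22 and Junb from -0.0013 to 0.09. Which property of the libraries gives these reversals was not tested. Added after seeing the data, the injury list rose in 4 to 11 genes, the early list in 0 to 6 and the glucocorticoid list in 3 to 6 in the blocked fits without a pair. Fosb had the fewest counts of the members, 11 to 30 a library.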
